A study of Mus musculus with 2 samples.

Results

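The genes described here are the olfactory receptor genes of mouse chromosome 2 that lie outside the largest receptor cluster of that chromosome. They were taken from the GENCODE M21 annotation as protein-coding genes with a symbol starting Olfr whose coordinates fall outside 85330779 to 90292841 of chromosome 2, so no measured value was used to choose them. This gave 68 genes, of 294 olfactory receptor genes on chromosome 2 and 1135 on all 20 chromosomes of the list. In 5 of the 68 the symbol carries the suffix -ps, although the annotation calls these genes protein-coding. The 68 genes form 2 tandem runs and 1 gene apart: 28 genes from Olfr338 to Olfr368, 39 genes from Olfr1275 to Olfr1318, and Olfr1274-ps, which starts 106 kb beyond Olfr1272, the last gene of the largest cluster. Here a run holds 5 or more genes, none of them over 500 kb from the next.

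The cells were mature olfactory sensory neurons that express Olfr16, a receptor gene also called MOR23, isolated from MOR23-GFP mice (adults, mixed sex) by cell sorting of olfactory epithelium. The labels give no strain and no treatment. Contacts between DNA ends that lie near each other in the nucleus were captured by in situ Hi-C with the restriction enzyme DpnII after fixation in 1% formaldehyde, on 28000 cells in biological replicate 1 and 24400 cells in biological replicate 2. There is 1 group and no control, and the values used are 1 list of 7435 boundaries, which the authors called from the combined contact matrix. A boundary is an interval of 5 kb that separates stretches of chromosome with many internal contacts; its strength score and its class, Weak or Strong, are the authors' own, with Strong above and Weak below a score of 0.5. The list gives no value per replicate and no depth, so the values below have no replicate error and no test, and the identity of the cells cannot be checked against marker genes in it.

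Olfactory receptors are G protein-coupled receptors that detect odorants. A mature olfactory neuron transcribes a single receptor allele out of the whole repertoire and keeps the rest silent in heterochromatin. The genes stand in tandem clusters that grew by local duplication, and a typical gene has short non-coding exons followed by a single coding exon. In the 68 genes, the longest annotated coding sequence was a single exon in 65 genes and had a median of 936 bp, with a range of 909 to 990 bp. None of the 68 is the receptor that these neurons were sorted for.

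Both runs had the same outline in the boundary list: a Strong boundary beyond each end, and 1 Weak boundary inside. The run from Olfr338 to Olfr368 (28 genes, 36373519 to 37332772) lay between a Strong boundary scored 1.28 at 36285001 to 36290000 and a Strong boundary scored 3.33 at 37350001 to 37355000. Its inner boundary, at 36750001 to 36755000, was Weak with a score of 0.241. The run from Olfr1275 to Olfr1318 (39 genes, 111230360 to 112159157) lay between Strong boundaries scored 1.44, at 111025001 to 111030000, and 0.827, at 112180001 to 112185000. Its inner boundary, at 111870001 to 111875000, was Weak with a score of 0.311. In the whole list 51.8% of boundaries were Strong, against 4 of 4 outer and 0 of 2 inner boundaries here. With Strong boundaries alone, each run would be 1 undivided stretch, of 1060 kb with 28 members and of 1150 kb with 39.

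**Figure D1:**
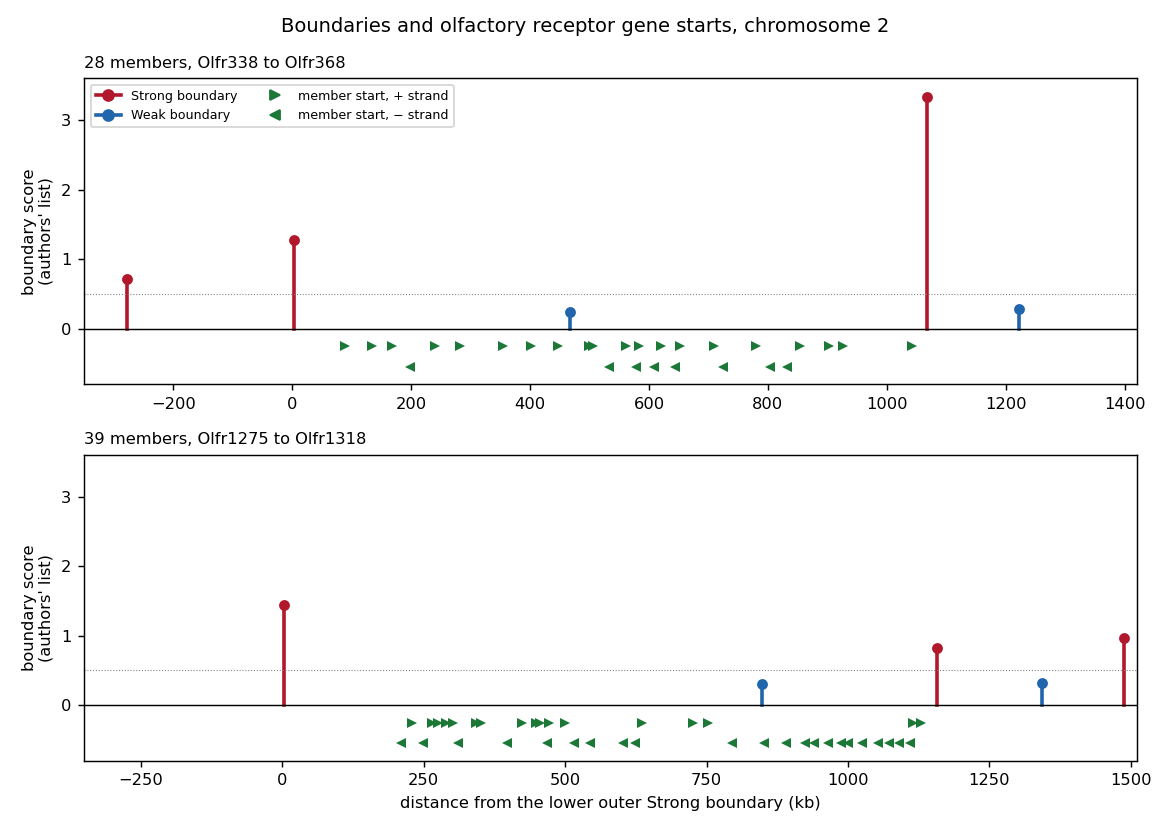
Boundaries (lines, height is the authors' score) and member gene starts (green triangles below the zero line, pointing right for the + strand and left for the − strand) along both runs, with distance in kb from the lower outer Strong boundary. Red lines are Strong and blue lines are Weak, the dotted line marks a score of 0.5, and the inner boundaries at scores of 0.241 and 0.311 are the lowest lines within the runs.

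The sequences around these boundaries were compared with the consensus of CTCF, the DNA-binding insulator protein that often marks boundaries in mammals. Exact matches to its 12 letters, on both strands, lay within 10 kb of 23.1% of all boundaries. Of the 8 boundaries that border or divide the intervals with members, 1 had such a match, and within 25 kb the count was 2 of 8, beside 38.1% of all boundaries. The match within 10 kb was at the Weak boundary above Olfr1274-ps, in an intron of Ptprj, a receptor tyrosine phosphatase gene. It fell inside the boundary interval itself, as did matches at 6.27% of all boundaries. The other lay 12.1 kb above the outer boundary beyond Olfr1318, on the side away from the receptor genes. Both are shown because they are the exact matches found within 25 kb of these 8 boundaries, with the 12 letters in capitals, 20 bases on each side, read 5′ to 3′ along the consensus on the + strand of GRCm38.
Ptprj boundary match, chr2:90474897-90474948: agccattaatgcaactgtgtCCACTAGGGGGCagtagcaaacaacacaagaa
Match above the Olfr1318 side boundary, chr2:112197044-112197095: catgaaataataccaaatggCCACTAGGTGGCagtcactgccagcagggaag
Neither the boundary scored 3.33 nor either inner boundary had an exact match within 25 kb. This says that these letters are not in the window and nothing about binding.

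With 1 mismatch allowed, matches became common: 87.9% of all boundaries and 7 of these 8 had one within 10 kb, and 43.4% of all boundaries and 3 of these 8 had one inside the boundary interval itself. This setting was chosen after the exact matches were seen. The 3 were the boundaries in Pdcl, in Olfr1305 and in Ptprj. The inner boundary of the Olfr338 to Olfr368 run had none inside, its nearest being 0.32 kb outside, and neither had the outer boundaries beyond Olfr338, Olfr1275 and Olfr1318. The matches inside the boundaries that overlap Pdcl and Olfr1305 are shown in the same way because they are the ones inside a boundary of the 2 runs, on the strand where each was found, + in Pdcl and − in Olfr1305. Both lie in introns.
Pdcl boundary, chr2:37352540-37352591: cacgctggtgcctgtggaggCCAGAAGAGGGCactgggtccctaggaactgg
Olfr1305 boundary, chr2:111870692-111870743: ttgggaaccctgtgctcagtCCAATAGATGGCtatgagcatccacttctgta
Inside the whole span of the Olfr1275 to Olfr1318 run there were 0 exact matches, and in the Olfr338 to Olfr368 run there were 2, or 2.08 per Mb. Chromosome 2 as a whole held 5.41 per Mb and the largest cluster 1.41 per Mb.

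Most of the 68 gene starts lay far from any boundary. A single member, Olfr1305, started within 10 kb of a boundary (1.47%), beside 12.4% of all protein-coding starts and 5.90% of all olfactory receptor starts. In the largest cluster the share was 2.21%. Within 25 kb there were 3 members (4.41%), beside 24.6% of all protein-coding starts, 12.2% of all olfactory receptor starts and 7.52% of starts in the largest cluster. Within 50 kb there were 10 members (14.7%), beside 44.0%, 25.1% and 18.6% in the same order. More than 100 kb away were 48 members (70.6%), beside 27.6%, 51.3% and 63.3%. Long distances were thus common to olfactory receptor genes, and the members' shares were nearest to those of the largest cluster. The median distance of the members was 162 kb (quartiles 88.3 and 260 kb), with an exact 95% interval for the median of 119 to 221 kb that treats the genes as independent, which tandem genes are not. The median was 58.4 kb for all protein-coding genes, 55.2 kb for the chromosome 2 genes that are no olfactory receptor genes, 135 kb for the 226 genes of the largest cluster and 104 kb for all olfactory receptor genes. The order of these medians is a description. Neighbours along a run share their nearest boundary, and the 68 genes had 7 nearest boundaries among them.

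**Figure D2:**
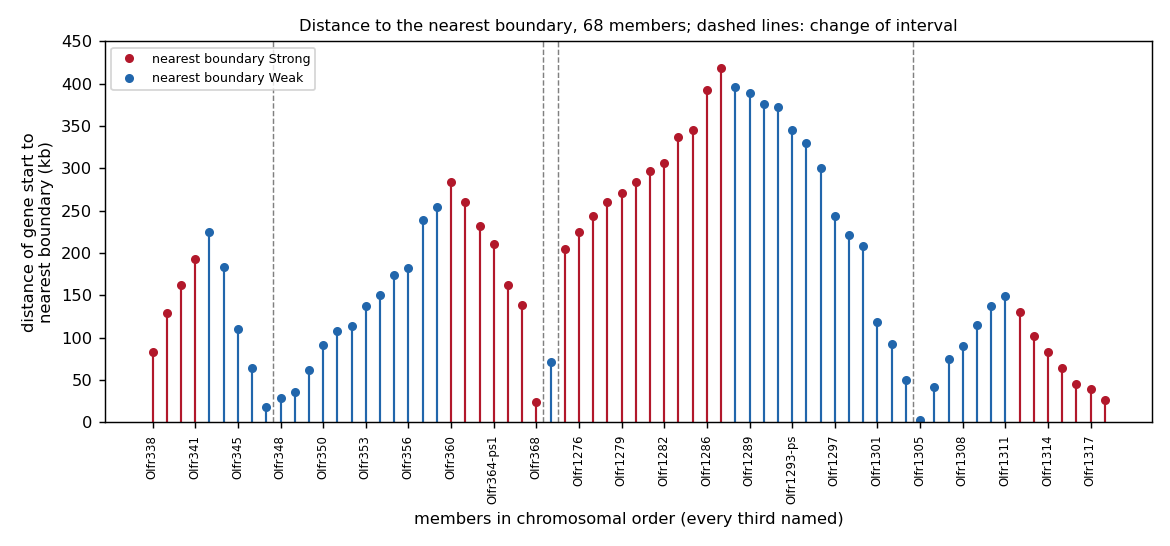
Distance in kb of each of the 68 gene starts to the nearest boundary, in chromosomal order; points are coloured by the class of that boundary and dashed lines mark where the interval between adjacent boundaries changes. Distances climb to a peak in the middle of each interval, the highest being 419 kb at Olfr1287, and drop to 2.15 kb at Olfr1305.

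**Figure D3:**
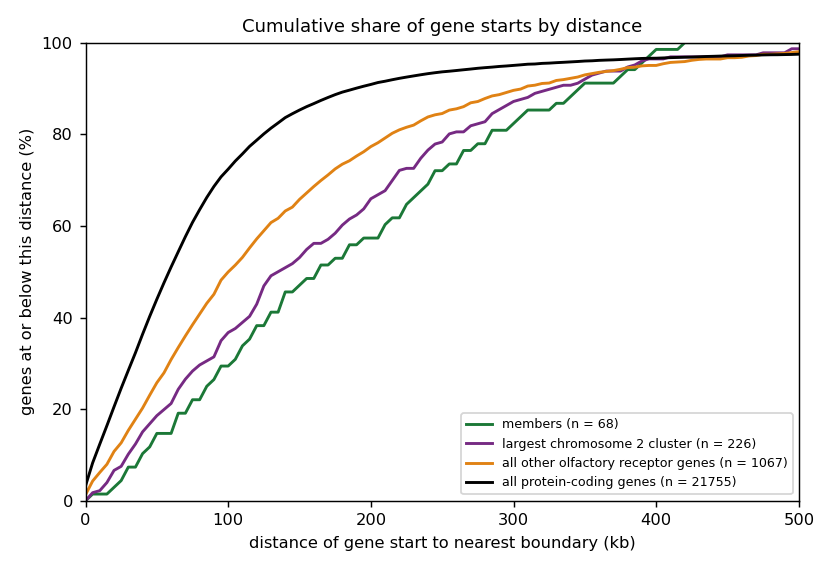
Percent of gene starts at or below each distance to the nearest boundary, for the 68 members, the 226 genes of the largest cluster, all 1067 olfactory receptor genes that are no members (the largest cluster included) and all 21755 protein-coding genes. The members' curve is the lowest at distances up to and beyond their median of 162 kb.

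The Olfr338 to Olfr368 run began 83.5 kb above its lower outer boundary. That boundary overlaps Olfr334-ps1, an unprocessed receptor pseudogene at 36285023 to 36285914, so with pseudogenes counted the run reached this boundary. Receptor pseudogenes numbered 9 within the outer boundaries of this run and 7 within those of the other. The nearest protein-coding gene on that side was Ptgs1, which encodes cyclooxygenase 1, ending 121 kb from Olfr338 and starting 54.6 kb from the same boundary, on its other side. Between the lower boundary and the inner Weak boundary lay 9 members in 460 kb, 8 of them on the + strand. Olfr342, the farthest of these, started 225 kb from a boundary. Olfr347, the last of them, started 18.1 kb below the inner boundary, and Olfr348, the next gene, 29.3 kb above it. The gap between these neighbours, 46.6 kb between gene bodies, was the fifth widest of 27 in the run, whose median was 21.4 kb. The inner boundary itself overlaps no annotated gene.

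The part of this run above the inner boundary held 19 members in 595 kb, 12 on the + strand and 7 on the − strand, and no other protein-coding start. Olfr348, Olfr50 and Olfr3 lay 29.3, 35.5 and 62.0 kb above the inner boundary. Olfr360 was the farthest, 284 kb from the upper Strong boundary and 311 kb from the inner one. Olfr368, the last gene, started 23.5 kb below the upper boundary. It stood apart from Olfr366 by the widest gap between members of the run, 102 kb, in which the receptor pseudogene Olfr367-ps lies. The gene body of Olfr368 ended 17.2 kb from the boundary, the shortest distance of any of the 4 run ends.

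That upper boundary, scored 3.33, was the highest of 550 boundaries on chromosome 2 and the third highest of the list. It overlaps exonic, coding and untranslated sequence of Pdcl, the phosducin-like gene, whose protein acts on G protein beta-gamma subunits. Pdcl is the nearest protein-coding gene beyond the run, its body 17.3 kb from Olfr368, and its start lay 4.33 kb from the boundary on the side away from the receptors. Beyond it followed Rc3h2, Zbtb6, Zbtb26 and Rabgap1, with starts 61.7 to 67.9 kb from a boundary. Within the 5 kb of this boundary 96.8% of 50 bp words occurred once in the genome, where the share was 89.95% for words sampled over chromosome 2. With 10 kb added on each side of the boundary it was 69.4%.

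The Olfr1275 to Olfr1318 run differed in its outer distance. Its lower Strong boundary lay 200 kb below Olfr1275, and the starts of 3 other protein-coding genes, Gm13941, Gm15130 and 4930430A15Rik, fell between the boundary and the run. The last of them, on the − strand, started 0.758 kb from Olfr1275. At the other end the distance from Olfr1318 to the Strong boundary was 20.8 kb, and the nearest protein-coding gene, Lpcat4, an acyltransferase gene of phospholipid synthesis, began 80.3 kb from Olfr1318, on the other side of the boundary. Thus 2 of the 4 run ends, those at Olfr368 and Olfr1318, were within 25 kb of a boundary and 2 were not. A run end is the outer edge of a gene body, here the end of each gene away from its start. By gene start, Olfr368 lay 23.5 kb and Olfr1318 25.8 kb from a boundary. Of all protein-coding starts 24.6% were within 25 kb, a share of starts and not of run ends. Ends of the other 31 receptor runs, to the largest of which Olfr1274-ps counts under the same rule, were near in 23 of 62 cases.

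The 25 members between the lower and the inner boundary of this run lay in an interval of 840 kb, which is longer than 94.9% of the 7415 intervals of the list. The 5 genes farthest from a boundary among all 68 were neighbours in it: Olfr1287 at 419 kb, Olfr1288 at 396 kb, Olfr1286 at 393 kb, Olfr1289 at 389 kb and Olfr1290 at 376 kb. Olfr1287 was almost at the centre, with 419 kb to the boundary below and 421 kb to the boundary above. Strands were mixed here, with 15 genes on + and 10 on −. Above the inner boundary 14 members shared 305 kb, the densest of the intervals at 4.59 members per 100 kb. Of these 14, the first 12 were on the − strand and the last 2, Olfr1317 and Olfr1318, on the + strand. Their distances ran from 2.15 kb at Olfr1305 to 149 kb at Olfr1311.

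Olfr1305 was the one member touched by a boundary. The gene spans 111867657 to 111877149 on the − strand, so the Weak boundary at 111870001 to 111875000 lies within the gene body. Its coding sequence, 111872918 to 111873853, fell wholly inside the boundary interval, and no other member's coding sequence overlapped one. Its annotated start, at 111877149, was 2.15 kb above the boundary. Olfr1303, the neighbour below, started 49.7 kb from it, and Olfr1306, the neighbour above, 41.3 kb. The gap between Olfr1303 and Olfr1305 was the second widest of 38 between members of the run, 47.3 kb against a median of 13.7 kb. The receptor pseudogenes Olfr1304-ps1 and Olfr268-ps1 lie in this gap. An exact position within the boundary cannot be read from a list in steps of 5 kb.

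RefSeq places the start of Olfr1305 at the first base of its coding sequence, 3.30 kb from the GENCODE start, and this start lies inside the boundary. The stretch from 33 bases upstream of this start is shown because it is the sequence before the coding exon of the gene that holds the inner boundary. It is an intron in GENCODE, read 5′ to 3′ on the − strand of GRCm38, and the capitals mark the AG at its end.
Olfr1305 intron before the coding exon, chr2:111873886-111873978: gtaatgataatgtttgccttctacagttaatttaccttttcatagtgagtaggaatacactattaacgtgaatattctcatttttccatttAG
Of the 68 members, 56 matched the RefSeq windows of 250 bases before to 50 after a gene start, with 57 windows. RefSeq and GENCODE starts differed by a median of 2.75 kb, so most windows do not surround the GENCODE start. As in Olfr1305, most members' RefSeq starts were the first base of the coding sequence. Their windows therefore lie across the start of the coding sequence. The letters TAATTA, a core that homeodomain proteins such as Lhx2 can bind, were found on either strand in 14 of 57 windows (24.6%), beside 18.6% of windows of all olfactory receptor genes and 5.29% of all RefSeq windows. TATAAA was found in 18 of 57 (31.6%), beside 41.0% and 13.6%. The palindromic core of Ebf sites was found in 0 of 57, beside 0.527% and 0.904%.

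Olfr1274-ps, the gene outside both runs (90398683 to 90403897, + strand), shared its interval with the largest cluster. The 560 kb between Weak boundaries scored 0.240 and 0.415 held 17 olfactory receptor starts, of which it was 1. Its start was 489 kb above the lower and 71.3 kb below the upper boundary, which lies in Ptprj. Gm13769 was the other gene that started there. Its closest relative by coding sequence was Olfr1506 of the largest cluster, 174 kb away in the same interval, with 98.4% nucleotide identity.

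The 2 runs were set beside the other receptor runs by the number of boundaries for their length. There were 2 boundaries in 1.89 Mb, 1.06 per Mb, against 69 in 28.4 Mb (2.43 per Mb) in the other 31 runs together, 1.77 per Mb in the run of the largest cluster and 3.08 per Mb on chromosome 2 from its first to its last boundary. Runs with fewer were not rare, since 9 of the other 31 held 0 boundaries. Among these was the run from Olfr20 to Olfr412 on chromosome 11, of 30 genes in 1.02 Mb between Strong boundaries. Gene density was 35.5 members per Mb here and 36.1 genes per Mb in the other runs. Of the boundaries inside the other runs 26 of 69 were Strong, and 0 of 2 here. Strong boundaries on both outer sides with no Strong boundary inside were found for both runs and for 7 of the other 31. With 2 boundaries these differences were not tested.

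Intervals between adjacent boundaries were then compared by the genes they hold. Of 7415 intervals, 117 held an olfactory receptor start, with a median of 6 starts and a maximum of 53, and 44 held at least 10. The interval from Olfr1275 to Olfr1303, with 25 starts, ranked ninth by number, that from Olfr348 to Olfr368, with 19, ranked 20th, that from Olfr1305 to Olfr1318, with 14, ranked 26th, and that from Olfr338 to Olfr347, with 9, ranked 45th. The lengths of these 4 run intervals, 460, 595, 840 and 305 kb, were all above the median of all intervals, 260 kb. The median of the 117 intervals with an olfactory receptor start was 290 kb. In 3 of the 4, no other protein-coding gene started. Of the 44 intervals with at least 10 olfactory receptor starts, 19 held no other protein-coding start. Those from Olfr348 to Olfr368 and from Olfr1305 to Olfr1318 are among these 19. The interval from Olfr1275 to Olfr1303 is one of the 44 but not of the 19, and that from Olfr338 to Olfr347, with 9 starts, is outside the 44.

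**Figure D4:**
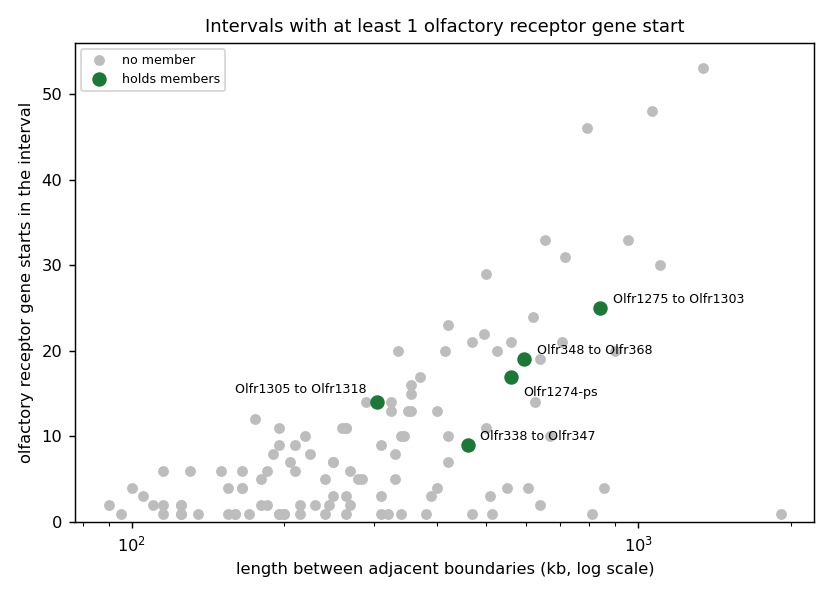
Number of olfactory receptor gene starts against length in kb (log scale) for the 117 intervals between adjacent boundaries that hold at least 1 such start; green points hold members and are labelled by their first and last member. The 5 green points run from 9 starts in 460 kb to 25 starts in 840 kb, and the point of Olfr1274-ps counts 17 starts, 16 of them of the largest cluster.

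The members were also compared by coding sequence, because tandem copies arise next to each other. The closest relative of each gene among all protein-coding olfactory receptor genes was taken as the best nucleotide alignment of coding sequences. With genes placed by their GENCODE starts, it lay in the same interval between boundaries for 59 of 68 members (86.8%). The share over all olfactory receptor genes was 75.2%. Intervals differ in length and relatives are mostly near, so this share depends on interval length too. The median identity to the closest relative was 88.9%, and 31 members had a relative of at least 90%. The 9 genes from Olfr338 to Olfr347 all had their closest relative among themselves, at 88.2 to 92.6% identity. Of the 19 genes above the inner boundary of that run, 11 had it within their interval. Among these was Olfr357, whose alignment with Olfr364-ps1 covered 238 of 924 bp, at 75.6%. Olfr348, Olfr50, Olfr350 and Olfr352 were closest to Olfr345 or Olfr347 across the Weak boundary, at 77.2 to 85.3%. Olfr354, Olfr356 and Olfr362 were closest to genes on other chromosomes, Olfr412, Olfr1324 and Olfr374, at 66.6 to 69.3%; the alignment of Olfr362 covered 202 bp.

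Olfr368, next to the boundary scored 3.33, had the lowest identity to its closest relative of all 68. That relative was Olfr1019 of the largest cluster, at 65.1% over 757 of 981 bp. Identity covers the aligned part alone, so it does not rank the genes by distance. In the other run 38 of 39 genes had their closest relative in their own interval. All 14 genes from Olfr1305 to Olfr1318 did, with Olfr1315-ps1 and Olfr1316 at 99.2% and Olfr1317 and Olfr1318 at 97.9%. The exception was Olfr1303, the last gene below the inner boundary, whose closest relative was Olfr1306 above it, at 75.3%. Olfr1305, on the boundary, was closest to Olfr1311 at 74.97%, the lowest identity among the 14. It counts in this interval by its GENCODE start alone, since its coding sequence lies inside the boundary.

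**Figure D5:**
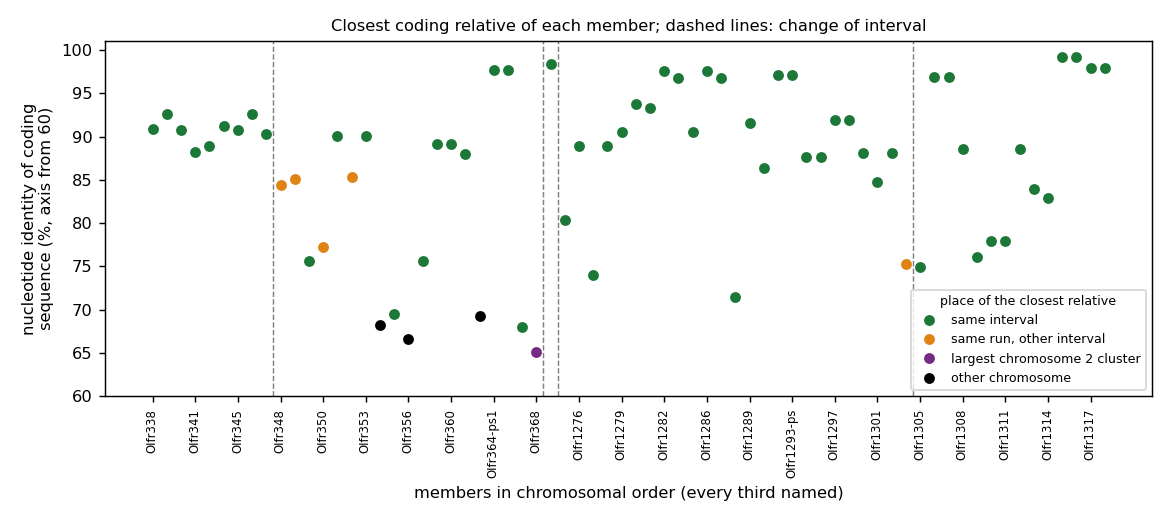
Nucleotide identity (percent, axis from 60) of each member's coding sequence to its closest relative among all protein-coding olfactory receptor genes, in chromosomal order; colours give where that relative lies and dashed lines mark the change of interval. Green points, in the same interval, number 59 of 68, and the point at 65.1% is Olfr368.

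Sequence composition, which bears on how well reads can be placed, differed between the runs and the chromosome. GC content was 39.2% in the run from Olfr338 and 37.6% in the run from Olfr1275, against 42.1% on chromosome 2 and 37.0% in the largest cluster. Soft-masked repeats covered 60.1% and 52.9%, against 32.1% on chromosome 2 and 47.6% in the largest cluster. The share of 50 bp words that occur once in the genome was 80.2% and 79.5%, against 89.95% of words sampled over chromosome 2 and 82.4% in the largest cluster, and was 55.0% in the interval of Olfr1274-ps. DpnII sites numbered 3.10 and 2.85 per kb, against 2.48 per kb on chromosome 2 and 2.67 per kb in the largest cluster. The lower outer boundary of the Olfr1275 run lay in sequence that was 97.8% masked, with 53.9% unique words, and the inner boundary of the other run was 95.6% masked, with 83.4% unique words. The part of these values in the boundary calls was not tested.

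The other genes of receptor choice, trafficking and signalling are spread over the genome. Of 30 such genes, 4 started within 10 kb of a boundary (13.3%), beside 12.4% of all protein-coding starts. They were Ehmt1, a histone methyltransferase gene of chromosome 2, and Gng13, both starting inside Strong boundaries, and the transcription factor genes Emx2 and Ebf1 at 3.37 and 7.32 kb from Strong ones. Lhx2, the homeodomain factor gene of these neurons, is also on chromosome 2, above the run from Olfr338, and started 90.7 kb from a Weak boundary scored 0.322. The median distance of the 30 genes was 41.4 kb.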

How the data were processed

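In situ Hi-C was made from 2 biological replicates. The authors derived the boundaries from 1 contact matrix that merged the replicates, per the labels' file list, and the deposited score and class of each boundary were used as given, to describe and rank within the list. The assembly is GRCm38, per the submitters' processing notes. How the score is computed, and with which caller and aligner, is not given in the sources used here. Contact matrices and insulation tracks were not used here, and depth is unknown.

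Gene coordinates came from GENCODE M21 and sequence from RefSeq GRCm38.p6. Coordinates are 1-based. A distance runs from the 5′ end of the gene to the boundary interval, and is 0 inside it. For a run end it runs from the outer edge of the gene body. Near means within 10 kb for gene starts and 25 kb for run ends. Distances were tested on simulated data and equalled those of bedtools 2.31.1. Unique words were 50 bp long, taken every 50 bp (every 5 bp in boundaries) and counted on both strands; 20000 were sampled for a chromosome. Closest relatives are the highest-scoring BLAST+ 2.17.0 nucleotide hits (E-value at most 1e-10). No gene was filtered out. Members, lists and named genes were chosen with earlier results of these data known. The named genes are the first and last of each run, genes in no run, those near a boundary, the 5 farthest, those beside an inner boundary and the nearest other gene outside each run; genes named for their closest relative, other neighbours, and Olfr3, Olfr50, Olfr342, Olfr360, Olfr366 and Olfr1311, were chosen after their values were seen. The alternatives are in the closing section.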

Additional observations from a re-analysis of the deposited data

How the results depend on the processing

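No paired analysis was possible because the list pools both replicates, and for the same reason neither replicate could be left out. The count of 1 member near a boundary also held within 5 kb, by whole gene body, by boundary midpoint, without -ps symbols, by RefSeq starts and by coding sequence; it was 3 within 25 kb, 10 within 50 kb and 0 with Strong boundaries. The median distance rose to 299.7 kb with Strong boundaries and stayed from 157 to 165 kb otherwise. Boundaries inside the runs numbered 0 with Strong boundaries and 2 under every other run definition tried. Run ends near a boundary numbered 0 within 10 kb and 1 with gaps of at most 100 kb, which ends the first run at Olfr366; with pseudogenes the count was 3. Strong boundaries left 3 intervals with members in place of 5. The mean score inside the runs, 0.276, became 1.18 once boundaries within 25 kb were counted. CTCF matches were found at 2 of 8 boundaries within 25 kb and, with 1 mismatch allowed after seeing the data, at 7 within 10 kb and 3 inside the interval. The unknown depth, the 5 kb step and repeated sequence limit how finely a boundary is placed.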
